A study of Mus musculus with 6 samples.

Results

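Pim1, Pim2 and Pim3 encode the mouse PIM kinases, and the rows with these 3 gene symbols were taken from a count table of 29872 genes. All 3 members passed the filter on low counts, which left 16221 genes for testing. Libraries came from 3 CML (chronic myeloid leukaemia) samples and 3 WT (wild type) samples, and are named by their replicate number (CML 1, WT 1 and so on). In both groups the cells were untreated bone marrow stem cells of the C57BL/6 background, sorted as Lin-Sca1+cKit+CD150+ and expanded ex vivo. The CML cells are labelled as leukaemic stem cells (LSCs) and the WT cells as haematopoietic stem cells (HSCs). The series was designed to set CML leukaemic cells beside murine stem and progenitor cells, and these libraries allow 1 contrast, CML over WT. The labels used here give neither the genetic model behind CML nor age, sex or animal, nor whether sort or expansion came first. Whether replicates are different animals or cultures is not labelled, so p-values reflect only how far these libraries scatter, and that scatter may be technical.

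PIM proteins are serine/threonine kinases without a known regulatory domain. They are active once made, so their output is set largely by transcription, mRNA stability, translation and protein turnover. Transcription of Pim genes is induced by cytokine receptors through JAK kinases and the STAT3 and STAT5 factors, and by NF-kB. BCR-ABL, the fusion kinase of CML, also activates STAT5. PIM substrates act in cell survival (BAD), protein synthesis (4E-BP1, EIF4B) and cell cycle control (p21, p27, CDC25). Pim1 was first found as a common site of proviral insertion in mouse lymphomas, and Pim2 and Pim3 can take over part of its role.

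The windows around the start sites are shown because transcription is a main point of control of these genes. Each spans 300 bases, from before the RefSeq start site to just inside the gene, 5′ to 3′ on the plus strand (RefSeq, GRCm38.p6). Capitals mark GC boxes (GGGCGG) and CCAAT boxes (CCAAT) on either strand, the motifs that were matched in these 3 windows.
Pim3: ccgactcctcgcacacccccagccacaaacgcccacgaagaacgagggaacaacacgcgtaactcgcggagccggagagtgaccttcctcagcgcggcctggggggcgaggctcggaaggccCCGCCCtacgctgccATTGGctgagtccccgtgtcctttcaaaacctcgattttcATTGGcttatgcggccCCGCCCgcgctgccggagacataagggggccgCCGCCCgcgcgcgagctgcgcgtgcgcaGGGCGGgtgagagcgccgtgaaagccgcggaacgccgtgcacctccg
Pim1: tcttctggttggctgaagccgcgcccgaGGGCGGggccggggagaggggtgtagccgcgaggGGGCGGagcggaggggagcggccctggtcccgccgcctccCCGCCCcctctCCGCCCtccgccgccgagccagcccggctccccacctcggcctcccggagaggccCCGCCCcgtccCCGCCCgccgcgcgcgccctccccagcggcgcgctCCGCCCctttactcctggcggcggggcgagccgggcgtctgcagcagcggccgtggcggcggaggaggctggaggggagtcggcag
Pim2: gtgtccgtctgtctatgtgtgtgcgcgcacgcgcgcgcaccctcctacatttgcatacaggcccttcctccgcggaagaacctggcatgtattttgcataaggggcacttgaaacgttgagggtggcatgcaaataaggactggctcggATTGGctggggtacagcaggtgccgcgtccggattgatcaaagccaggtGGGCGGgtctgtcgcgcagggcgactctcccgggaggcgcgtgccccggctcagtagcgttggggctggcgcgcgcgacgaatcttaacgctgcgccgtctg
The Pim3 window, at chr15:88861944-88862243, is 69.0% G or C and holds 4 GC boxes and 2 CCAAT boxes. The Pim1 window, at chr17:29490535-29490834, is 81.3% G or C and holds 7 GC boxes and no CCAAT box. The Pim2 window, at chrX:7878056-7878355, is 62.7% G or C and holds 1 of each. Among 32851 RefSeq windows of the same length, with a median of 52.7% G or C, 35.7% held a GC box and 37.4% a CCAAT box. A STAT motif (TTCNNNGAA, held by 8.3% of all windows) was not matched in any of the 3. Nor were the NF-kB motif by its name (4.5%), the TATA box TATAAA (13.6%), the E-box CACGTG (7.2%) or the cyclic AMP response element TGACGTCA (1.8%). No match says only that these letters are not in these windows. RefSeq lists a second, downstream Pim1 window, at chr17:29492835-29493134 (49.0% G or C), that held 1 CACGTG and none of the other motifs.

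Library totals ran from 13323469 to 15433481 counts in CML and from 15930585 to 17926847 in WT. No pair of libraries agreed within sampling noise (chi-square over degrees of freedom at least 8.57). Of the 16221 tested genes 17.4% changed, 10.2% being higher in CML and 7.2% lower (edgeR quasi-likelihood test with Benjamini-Hochberg adjustment, adjusted p under 0.05). That is 1652 genes higher and 1168 lower, or 2065 higher and 732 lower when scaled by library totals alone, a scaling that moved the median log2 fold change of all genes from -0.004 to 0.09. Without WT 2 the counts were 1011 and 455, and without WT 3 they were 2021 and 2101. Leaving out CML 2, CML 3 or WT 1 gave 675, 569 and 688 genes lower in CML. The gate genes were present in every library, with means in CML and WT of 309 ± 100 and 292 ± 9.05 CPM for Kit, 106 ± 57.5 and 52.2 ± 12.1 CPM for Ly6a and 14.2 ± 4.35 and 24.7 ± 6.61 CPM for Slamf1 (SD, n = 3). Slamf1, which encodes CD150, was called lower in CML (adjusted p = 0.0470, edgeR), a call lost in 6 alternatives (0.0520 to 0.158). CPM are counts scaled to library size with TMM factors.

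Markers of other cells differed between the groups, where 10.2% of all tested genes were called higher in CML and 7.2% lower. Of 14 mast cell and basophil markers 9 were higher in CML, and their summed level was 2407 to 8411 CPM in CML against 206 to 415 CPM in WT. Mcpt1 was at 0 in all WT libraries, while Cpa3, a mast cell protease gene, had 2907 ± 1636 CPM in CML, against 93.96 ± 36.9 CPM in WT. The number called ran from 2 without WT 1 to 13 without CML 1 or with non-robust dispersions, and was 5 without WT 2. Monocyte and macrophage markers were higher for 5 of 9 tested of 12 (summed 362 to 430 CPM in CML, 238 to 296 CPM in WT), and dendritic cell markers for 5 of 9 tested of 10 (97.7 to 321 CPM against 30.0 to 58.7 CPM). The dendritic count ran from 1 to 7 over the alternatives. Among them were 1 without WT 1, 2 without WT 2, 3 without CML 3 or WT 3, and 7 without CML 1. Of 10 erythroid markers 6 were tested, 1 rose and 2 fell (summed 135 to 227 CPM against 303 to 411 CPM; Hba-a1 and Slc4a1 at 0 in WT), or 6 rose without CML 1 and 1 fell without WT 1. Lymphoid markers rose for 3 of 5 tested of 14 (summed 82.9 to 114 CPM against 65.1 to 86.6 CPM). Of 8 megakaryocyte markers 7 were tested, 1 rose and 2 fell (summed 272 to 389 CPM against 329 to 366 CPM), or 1 fell without CML 2, WT 1, WT 2 or WT 3. The 12 neutrophil markers summed to 115 to 199 CPM in CML and 96.2 to 188 CPM in WT (Camp and Ly6g at 0 in WT), and 0 of the 7 tested passed with edgeR (2 at an unadjusted p under 0.05), DESeq2 or limma-voom, while 1 rose and 1 fell with the replicate number as a block and 1 fell with no low-count filter.

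Pim3 (ENSMUSG00000035828.11, chromosome 15, 88862186 to 88865726, plus strand, GRCm38) rose in CML. It was at 41.1, 39.8 and 47.0 CPM in CML 1, 2 and 3, against 10.7, 11.6 and 13.8 CPM in WT 1, 2 and 3. The lowest CML library stood far above the highest WT library. Behind these values were 655, 545 and 751 counts in CML and 179, 183 and 222 counts in WT. The fold change was 3.55 (95% interval 2.86 to 4.39), or 1.83 on the log2 scale (SE 0.14, adjusted p = 3.25e-06, edgeR). By adjusted p, Pim3 ranked 52nd of the tested genes, while 487 genes called higher in CML had a larger fold change. The call was kept in each of the 15 alternative analyses, with log2 fold changes of 1.74 without WT 1 to 1.94 without WT 3. In bulk samples a change in the share of cells that express a gene and a change in its RNA per cell cannot be told apart. Within CML, Pim3 was lowest in replicate 2, the library with the highest mast cell sum (8411 CPM), and was close to it in replicate 1, the library with the lowest (2407 CPM). The part of these markers in the difference between groups was not tested.

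**Figure D1:**
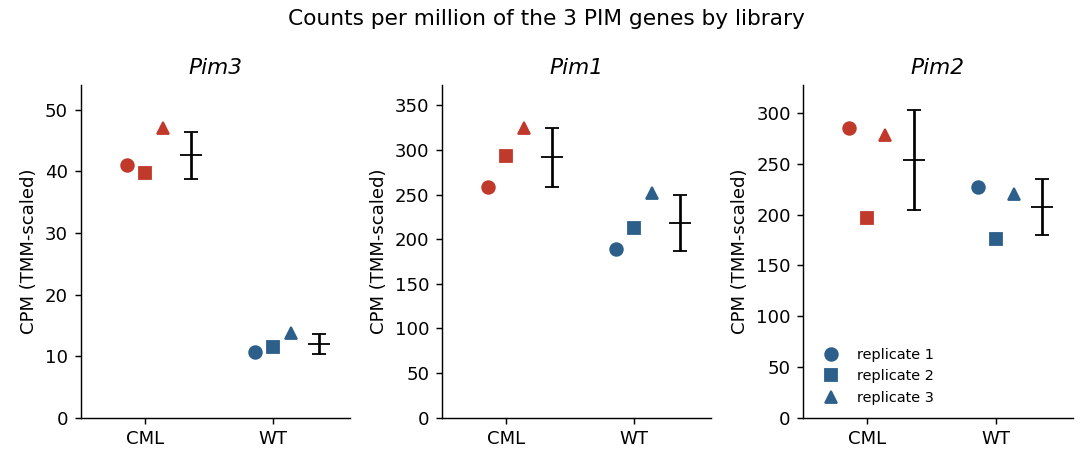
CPM of Pim3, Pim1 and Pim2 in each library, CML left and WT right in each panel. Marker shapes are replicates 1 to 3, and the bar with whiskers is the mean ± SD (n = 3). Pim3 lies at 39.8 to 47.0 CPM in CML and 10.7 to 13.8 CPM in WT, Pim1 is separated by a narrow gap, and Pim2 overlaps.

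Pim1 (ENSMUSG00000024014.8, chromosome 17, 29490753 to 29496112, plus strand) was higher in CML by a smaller factor. It was at 258, 293 and 324 CPM in CML 1, 2 and 3, against 189, 213 and 252 CPM in WT 1, 2 and 3. The groups did not overlap, but CML 1 and WT 3 lay close together. Every CML library stood above every WT library for 18.5% of all tested genes, and below for 16.5%. The fold change was 1.34 (95% interval 1.09 to 1.64), or 0.42 on the log2 scale (SE 0.13, adjusted p = 0.0476, edgeR), just inside the threshold. The call was lost with RLE size factors (adjusted p = 0.0505), limma-voom (0.0553) or non-robust dispersions (0.0550). It was lost as well on leaving out CML 2 (0.118), CML 3 (0.205), WT 1 (0.173) or WT 2 (0.167), at log2 fold changes of 0.32 to 0.42. The antisense model Gm26885 overlaps Pim1, and the strand setting of the counting is not given, so reads of the pair cannot be told apart. Gm26885, looked up for that reason after the values were seen, had 7.30 ± 0.84 CPM in CML and 6.01 ± 0.30 CPM in WT.

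Pim2 (ENSMUSG00000031155.16, chromosome X, 7878262 to 7883432, plus strand) did not pass. It was at 285, 197 and 279 CPM in CML 1, 2 and 3, against 227, 176 and 220 CPM in WT 1, 2 and 3. The groups overlapped, since CML 2 lay below WT replicates 1 and 3. The fold change was 1.22 with a 95% interval from 0.967 to 1.54, or 0.29 on the log2 scale (SE 0.15, adjusted p = 0.228, edgeR). Its adjusted p ran from 0.0747 without CML 2 to 0.594 without WT 2. The interval leaves room for a rise as large as that of Pim1, so Pim1 and Pim2 are not shown to differ. Of the 3 members, 2 were thus called higher in CML, against 10.2% of all tested genes.

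**Figure D2:**
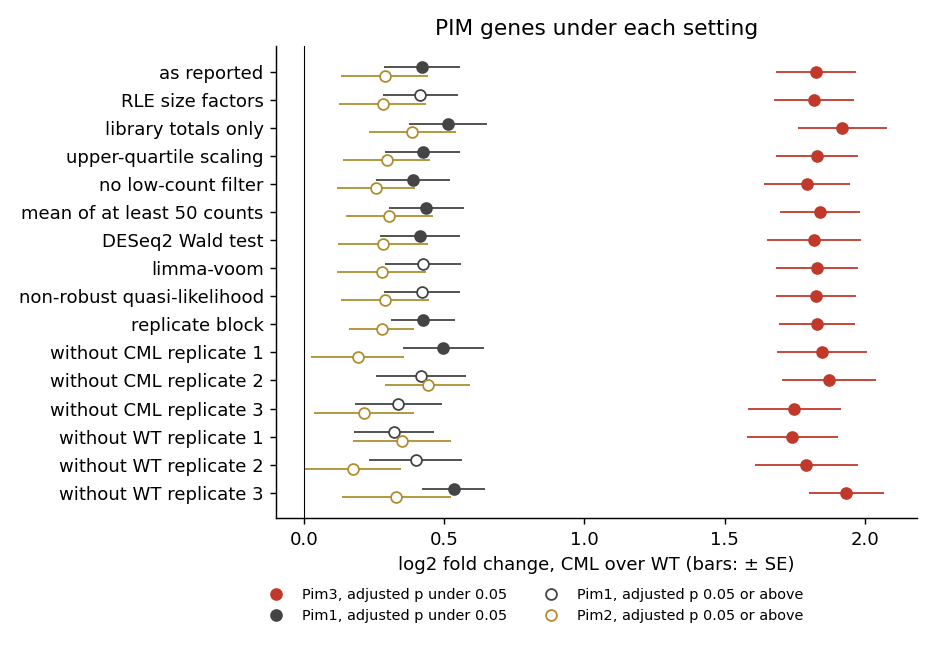
Log2 fold change (CML over WT) of Pim3, Pim1 and Pim2 as reported and under 15 alternatives, with bars of ± SE. Filled points have an adjusted p under 0.05. Pim3 stays filled at 1.74 to 1.94, Pim1 is open in 7 alternatives, and Pim2 is open throughout.

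The members were next compared within each library, where the scaling of libraries cancels. The log2 ratio of Pim3 to Pim1 counts was -2.65, -2.88 and -2.78 in CML 1, 2 and 3, against -4.14, -4.20 and -4.19 in WT. This ratio did not overlap between groups and was 1.40 higher in CML (means -2.77 ± 0.12 in CML and -4.18 ± 0.03 in WT, SD, n = 3, exact two-sided permutation p = 0.1). The Pim3 to Pim2 ratio was 1.55 higher in CML (means -2.56 ± 0.24 and -4.11 ± 0.26, exact permutation p = 0.1), again without overlap. The Pim1 to Pim2 ratio was 0.15 higher in CML (means 0.22 ± 0.36 and 0.07 ± 0.29, exact permutation p = 0.6), with overlap, and turned to -0.032 when CML 2 was left out and to -0.018 when WT 1 was. Adjusted over the 3 pairs the p-values were 0.15, 0.15 and 0.6. With 3 libraries a group this permutation test cannot reach a p below 0.1. Pim3 was thus higher relative to Pim1, and relative to Pim2, in each CML library than in each WT library.

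Levels of different genes were compared per length, as CPM per kilobase of merged exons in GENCODE. Pim2 stood at 90.7 ± 17.7 in CML and 74.3 ± 9.91 in WT on this scale, and Pim1 at 86.7 ± 9.86 and 64.9 ± 9.46 (SD, n = 3). Pim1 and Pim2 did not differ beyond their spread in either group. Pim3 was far lower, at 17.6 ± 1.59 in CML and 4.95 ± 0.67 in WT. Among 15805 tested genes with a length, Pim2 and Pim1 lay at the 97.1 and 96.9 percentile in CML and at the 95.7 and 94.9 percentile in WT. Pim3 lay at the 80.5 percentile in CML and at the 51.8 percentile in WT.

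The summed per-length level of the 3 genes was 196, 174 and 216 in CML 1, 2 and 3, against 142, 131 and 160 in WT. The sums did not overlap, and the CML mean was 1.35 times the WT mean. Pim3 made up 9.02% ± 0.38 of the sum in CML and 3.44% ± 0.29 in WT. Pim1 made up 44.7% ± 5.45 in CML and 45.0% ± 4.67 in WT, and Pim2 46.3% ± 5.83 and 51.6% ± 4.96. Of the difference in the summed level, Pim3 made up 24.8%, Pim1 43.0% and Pim2 32.2%. Their order turned on single libraries, in an alternative chosen after seeing the data. Pim2 made up the largest part without CML 2 (43.2%) or WT 1 (39.8%) and the smallest without CML 1 (21.2%) or WT 2 (24.1%), while Pim3 ran from 21.5% to 28.8%. With the longest transcript as the length, the Pim3 share was 7.05% in CML and 2.64% in WT.

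**Figure D3:**
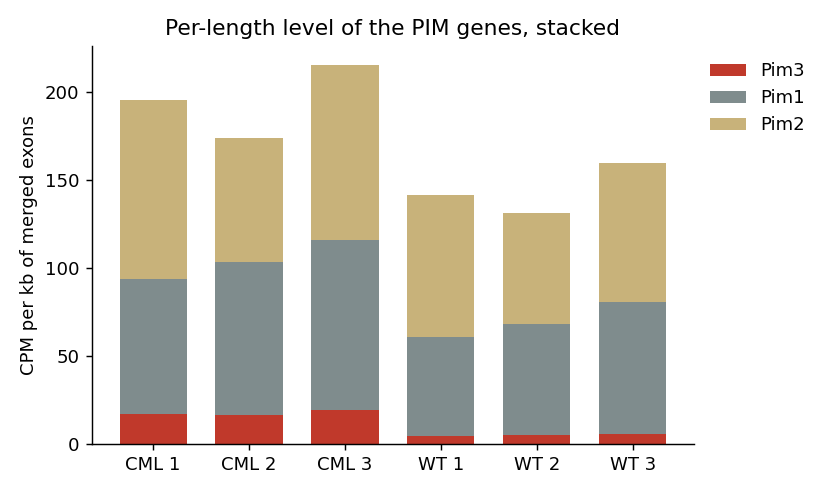
Per-length level (CPM per kilobase of merged exons) of Pim3, Pim1 and Pim2, stacked in each of the 3 CML and 3 WT libraries. The bars reach 174 to 216 in CML and 131 to 160 in WT, and the red Pim3 layer is 16.4 to 19.4 in CML and 4.41 to 5.70 in WT.

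The mRNAs were also compared by their 3′ ends, since AU-rich elements shorten the life of many growth-related mRNAs. The longest annotated 3′ UTR of Pim3 (964 bases) held 5 copies of ATTTA, counted on the sense strand, as did that of Pim1 (1365 bases). The 3′ UTR of Pim2 (915 bases) held 2. Over 21005 protein-coding genes the median was 1 copy in 961 bases, and 21.6% of genes had 5 or more. Pim3 had 5.19 copies per kilobase, Pim1 3.66 and Pim2 2.19. These are counts of letters and not of functional elements.

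Upstream of the Pim genes, 6 of 20 cytokine receptor, JAK and STAT genes rose and 1 fell, beside 10.2% and 7.2% of all tested genes. The list median log2 fold change was 0.39, against -0.004 over all tested genes. Jak2, the kinase of many cytokine receptors, had 233 ± 48.7 CPM in CML, against 145 ± 20.1 CPM in WT (0.68 on the log2 scale, adjusted p = 0.0107, edgeR). Il6st, the shared receptor chain of the interleukin-6 family, rose by 1.21 on the log2 scale, the scale of all such amounts from here on. Csf2rb, the shared receptor chain for interleukin-3, interleukin-5 and GM-CSF, rose to 329 ± 143 CPM in CML, against 60.7 ± 7.65 CPM in WT, and its close copy Csf2rb2 to 164 ± 81.4 CPM, against 11.6 ± 3.14 CPM. How reads shared by this pair were divided is not given, so both values are uncertain. Of the 6 genes that rose, 5 had the order of the mast cell sum across CML 1, 2 and 3, namely Csf2rb (194, 479 and 315 CPM), Csf2rb2, Jak2 (188, 285 and 225 CPM), Tyk2 and Stat5b. Il6st and Pim3 did not, and the part of those cells in these changes was not tested. How many of all tested genes had this order was not counted, so the number of matches has no background. Stat5b had a log2 fold change of 0.41 and Tyk2 of 0.52 (adjusted p = 0.0417 and 0.0153), while Stat5a (0.26, adjusted p = 0.141) and Stat3 (0.40, adjusted p = 0.0718) did not pass. The number of genes in the list that rose was 2 without WT 1, 3 without WT 2 and 10 without CML 1. Csf2rb and Csf2rb2 missed the threshold without WT 1 (adjusted p = 0.0656 and 0.0619), Jak2 without WT 2 (0.0534), and Tyk2 without CML 2 (0.0873), WT 1 (0.0521) or WT 2 (0.0876). Stat5b missed it on leaving out CML 2 (0.172), CML 3 (0.136), WT 1 (0.147) or WT 2 (0.106), and with limma-voom (0.0547).

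Among 15 other genes known to respond to STAT5, 8 rose and 3 fell, beside 10.2% and 7.2% of all tested genes. The list median log2 fold change was 1.38. The feedback inhibitors Cish, Socs3 and Socs1 rose by 2.42, 3.06 and 1.38. Cish had 208, 177 and 192 CPM in CML 1, 2 and 3, against 36.7, 33.8 and 37.2 CPM in WT. Every CML library thus stood above every WT library for Cish, as for 18.5% of all tested genes. The cytokine genes Lif and Osm rose by 3.67 and 2.41, the growth factor gene Igf1 by 5.91, the repressor gene Bcl6 by 2.49 and the cyclin gene Ccnd3 by 0.37. Id1, an inhibitor of differentiation factors, fell by 1.31, the cyclin gene Ccnd2 by 0.68 and the survival gene Bcl2l1 by 0.66. Socs2 (0.28, adjusted p = 0.418), Mcl1 (0.08, adjusted p = 0.683), Ccnd1 (-0.53, adjusted p = 0.366) and Il2ra (2.52, adjusted p = 0.174) did not pass. Across CML 1, 2 and 3, Socs1, Socs3, Lif, Osm and Ccnd3 were ordered like the mast cell sum (Osm at 18.1, 44.0 and 32.4 CPM). Cish, Igf1 and Bcl6 were not, and the part of those cells was not tested. Again the share of all tested genes with this order was not counted. Members of the list thus stood on both sides of 0, as the plot of the pathway lists shows. Ccnd3 (adjusted p = 0.0452) missed the threshold without any one of CML 1, 2 and 3 or WT 1 and 2 (0.0505 to 0.195) and with no low-count filter (0.0816).

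NF-kB is another known inducer of Pim genes. Of 12 subunit and feedback genes 8 rose and the other 4 did not pass, while 10.2% of all tested genes rose and 7.2% fell. The list median log2 fold change was 0.91. The subunit genes Rel, Relb and Nfkb2 rose by 0.98, 1.21 and 0.85, and their relative Bcl3 by 1.88. The feedback genes Nfkbia, Nfkbie and Tnfaip3 rose by 1.06, 0.97 and 0.78, and Birc3, an inhibitor of apoptosis, by 1.26. Birc3 had 95.2, 110 and 103 CPM in CML 1, 2 and 3, against 42.1, 40.3 and 46.5 CPM in WT. Rela (0.29, adjusted p = 0.178) and Nfkb1 (0.12, adjusted p = 0.520) did not pass. The summed level of the 12 genes was 781, 908 and 902 CPM in CML 1, 2 and 3, against 517, 479 and 561 CPM in WT. Of the genes that rose, Birc3, Nfkbia, Nfkbie and Nfkb2 had the order of the mast cell sum across CML 1, 2 and 3. Rel, Relb, Bcl3 and Tnfaip3 did not, and the part of those cells was not tested. Steps from CML 3 to CML 2 were small for Nfkbia (91.2 and 92.9 CPM) and Nfkbie (25.9 and 26.2 CPM). Here too the share of all tested genes with this order was not counted. The number that rose was 8 or 9 in every alternative analysis.

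**Figure D4:**
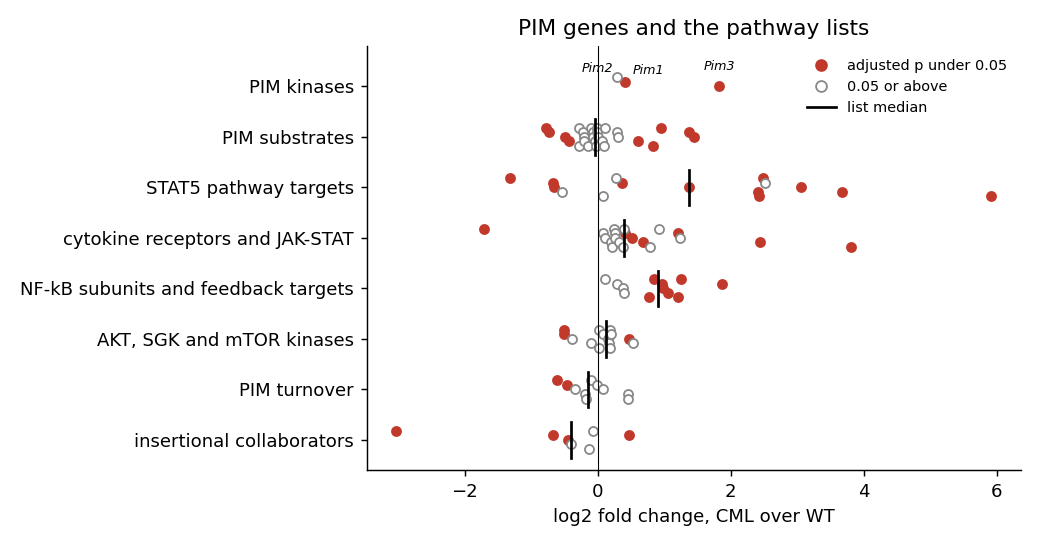
Log2 fold change (CML over WT) of the PIM genes and of the tested genes of 7 pathway lists, 1 point a gene, spread vertically for legibility. Filled points have an adjusted p under 0.05 and black bars are list medians, which run from -0.40 for the insertional collaborators to 1.38 for the STAT5 targets, with -0.03 for the PIM substrates.

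The genes of PIM substrates moved in both directions. Of 28 substrates 5 rose and 4 fell, beside 10.2% of all tested genes higher in CML and 7.2% lower. The list median log2 fold change was -0.03, and it turned to 0.065 when scaled by library totals. Cdkn1a, which encodes the cell cycle inhibitor p21, had 78.95 ± 17.0 CPM in CML, against 40.8 ± 4.40 CPM in WT (0.95 on the log2 scale, adjusted p = 0.00133, edgeR). The transcription factor genes Runx1 and Foxo1 rose by 0.61 and 0.83, Socs1, counted in the STAT5 list as well, by 1.38 and the drug exporter gene Abcb1a by 1.45. Abcg2, another drug exporter gene, fell to 72.4 ± 7.12 CPM in CML, against 120 ± 11.4 CPM in WT (log2 fold change -0.72). Nfatc1, a transcription factor gene, fell by 0.78, Cbx3, which encodes a heterochromatin protein, by 0.43 and the stress kinase gene Map3k5 by 0.48. The survival and translation substrates Bad (0.10, adjusted p = 0.763), Eif4ebp1 (-0.15, adjusted p = 0.456) and Eif4b (-0.20, adjusted p = 0.246) did not pass, nor did Myc (-0.07, adjusted p = 0.843) and Cdkn1b (-0.004, adjusted p = 0.987). RNA levels say nothing of phosphorylation. The number that fell was 2 on leaving out any one of CML 2, CML 3, WT 1 and WT 2, and 2 with library totals, a mean of at least 50 counts or limma-voom. Cbx3 missed the threshold without the same 4 libraries (adjusted p = 0.0513 to 0.238) and in the same 3 alternatives (0.0502 to 0.0892). Map3k5 missed it in 11 of the 15 alternatives, among them each left-out library (0.0510 to 0.132), and Abcb1a with limma-voom (0.0571) or without CML 1 (0.103), CML 2 (0.0560), WT 2 (0.123) or WT 3 (0.0529).

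AKT kinases share substrates with PIM. Of 15 genes listed with AKT, SGK and mTOR, 14 were tested, 1 rose and 2 fell, a share near the 17.4% called among all tested genes, with a list median log2 fold change of 0.12. Akt1 (0.03, adjusted p = 0.915), Akt2 (0.19, adjusted p = 0.292) and Mtor (0.02, adjusted p = 0.953) did not pass. Mknk1, a kinase of the translation factor eIF4E, rose by 0.47, and Rps6kb1, the ribosomal S6 kinase, fell by 0.50. Pdk1 fell by 0.51, but this symbol stands for a pyruvate dehydrogenase kinase of metabolism and not for the kinase that activates AKT. That kinase, Pdpk1, had a log2 fold change of 0.19 (adjusted p = 0.245). Mknk1 missed the threshold on leaving out any one of CML 2, CML 3, WT 1 and WT 2 (adjusted p = 0.0564 to 0.0796), and Rps6kb1 on leaving out any one of CML 1, CML 2, WT 1 and WT 2 (0.0541 to 0.0890).

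Of 10 genes tied to the turnover of PIM mRNA and protein, 2 fell and the other 8 did not pass (list median log2 fold change -0.14). The share called was near the 17.4% called in either direction among all tested genes, where 10.2% rose and 7.2% fell. The number that fell was 1 without CML 3, and 3 with DESeq2 or without WT 3. Hsp90aa1, a chaperone gene whose product protects PIM1 from degradation, had 498 ± 13.5 CPM in CML, against 762 ± 103 CPM in WT (-0.61 on the log2 scale, adjusted p = 0.00573, edgeR). Hsp90ab1, its close relative, had a log2 fold change of -0.17 (adjusted p = 0.382). Ppp2cb, a catalytic subunit of the phosphatase PP2A, fell by 0.46, a call lost without CML 3 (adjusted p = 0.0604). Zfp36, which encodes a protein that binds AU-rich elements and promotes mRNA decay, did not pass, at 5.98 CPM in CML against 4.35 CPM in WT (adjusted p = 0.247).

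Among 8 genes known to collaborate with Pim genes in mouse tumours, 7 were tested, 1 rose and 3 fell. Beside these counts, 10.2% of all tested genes rose and 7.2% fell. The list median log2 fold change was -0.40. Mycn fell by 3.03, with 10.9, 13.2 and 14.7 CPM in CML 1, 2 and 3, against 84.5, 102 and 129 CPM in WT. Its change was opposite in sign to that of Pim3 and larger. Ccnd2 fell by 0.68, and Bmi1, a Polycomb gene, by 0.45. Gfi1b, a repressor gene of the erythroid and megakaryocyte lineages, rose by 0.47, whereas Gfi1 (-0.13, adjusted p = 0.710) did not pass. Bmi1 missed the threshold on leaving out any one of CML 2, CML 3, WT 1 and WT 2 (adjusted p = 0.0859 to 0.166) and with library totals (0.0620). Gfi1b missed it without any one of CML 1, 2 and 3 or WT 1 and 2 (0.0516 to 0.222), with no low-count filter (0.0713) and with limma-voom (0.0548).

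The genes with the pattern most like each member over the 6 libraries were found by Pearson's r of log2 CPM among 9951 named genes with a mean of at least 5 CPM. All share the libraries and their scaling, and r over 6 points in 2 groups can reflect the difference between groups. For Pim3 they were Dhrs3 (r = 0.999), a retinal reductase gene, Lrrc42 (0.999) and Azin2 (0.998), an antizyme inhibitor gene of polyamine metabolism. Dhrs3 had 38.6, 34.4 and 45.1 CPM in CML 1, 2 and 3, against 4.06, 4.80 and 7.16 CPM in WT, the order of Pim3 in both groups. Azin2 rose by 5.29 and Lrrc42 by 0.62, the call of Lrrc42 being lost without WT 2 (adjusted p = 0.0659). For Pim1 they were Gga2 (r = 0.9998), a gene of transport from the Golgi, Znrf1 (0.999), a ubiquitin ligase gene, and Fam117a (0.996). Their log2 fold changes were 0.37, 0.46 and 0.64, beside 0.42 for Pim1. Gga2 did not pass (adjusted p = 0.0755), and Znrf1 and Fam117a lost their calls without the same 4 libraries as Pim1 (0.0794 to 0.160 and 0.0563 to 0.0888). For Pim2 they were Xkr5 (r = 0.984), H2-Q6 (0.967) and Fancd2 (0.954), a gene of DNA crosslink repair, none of which passed (adjusted p = 0.331 to 0.455). H2-Q6 belongs to a family of near-identical genes, and its value is uncertain for that reason.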

How the data were processed

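RNA was sequenced from 3 CML and 3 WT libraries made with a transposase-based kit (Nextera XT), per the labels' protocols. The authors deposited estimated counts per gene (expected counts, 35.0% to 36.9% of them not whole in a library), not scaled to a common total. The submitters' processing notes name STAR 2.7.3a, Partek 8.0 and mm10 without role or order. For annotation, strand setting and division of shared reads, the sources used here give nothing.

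Counts were rounded and filtered with filterByExpr (minimum count 10), and groups came from the sample titles. The main test was the edgeR 4.0.16 quasi-likelihood F test in R 4.3.3 (TMM scaling, robust dispersions, two-sided), adjusted by Benjamini-Hochberg over all 16221 genes with a threshold of 0.05. The code was tested on simulated counts. DESeq2 1.42.0, limma 3.58.1 (voom), other scalings and filters, a replicate block and leaving out each library were alternatives. Ratios within a library used counts plus 0.5 and exact permutation tests. GENCODE M21 (GRCm38) gave lengths and annotation, with 96.7% of symbols matched to 1 gene. All 3 members matched the RefSeq promoter table.

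The members and lists were chosen with earlier results of these data known. A pathway list gave at most 6 named genes, its called members of lowest adjusted p, plus its most abundant member. From a marker list they were the called member with the lowest adjusted p and the most abundant one. The 3 genes most like each Pim gene were added, by the measure given with them. Any other gene was chosen after its values were seen. Results for some single genes that the rule covers are not reported here.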

Additional observations from a re-analysis of the deposited data

How the results depend on the processing

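The direction of Pim1, Pim2 and Pim3 was the same in all 15 alternatives. Pim1 no longer passed at log2 fold changes of 0.41 with RLE size factors, 0.42 with limma-voom and 0.42 with non-robust dispersions, a small shift across the threshold in each case. Leaving out 1 library gave 0.32 to 0.53 for Pim1, 0.18 to 0.44 for Pim2 and 1.74 to 1.94 for Pim3. The Pim1 to Pim2 ratio ran from -0.032 to 0.33 without 1 library, the Pim3 to Pim1 ratio from 1.34 to 1.46 and the Pim3 to Pim2 ratio from 1.40 to 1.67. Over all genes, leaving out 1 library gave 1011 to 2021 genes higher and 455 to 2101 lower in CML, and library totals gave 732 lower. Each such fit has fewer libraries, and the cause of the differences between them was not tested. Kit, not called in the reported analysis, ran from -0.16 to 0.30 without 1 library. Lyz2, a monocyte gene not called either (0.014), ran from -0.053 to 0.12 without 1 library and was at -0.015 with no low-count filter. With the replicate number as a block, the adjusted p was 0.0231 for Pim1, 0.123 for Pim2 and 2.00e-06 for Pim3, and 1607 genes were higher and 1200 lower. Over all tested genes, same-numbered libraries did not deviate together (correlations of -0.02, -0.05 and 0.01 for replicates 1, 2 and 3). Pim1 and Pim2 each had the same order of replicates in CML and WT, while Pim3 did not. Whether the numbers pair the samples is not labelled, and so few libraries cannot settle it. The alternatives with lengths of the longest transcript moved the Pim3 shares to 7.05% in CML and 2.64% in WT. Among the other named genes a call was lost in 82 cases of a gene and an alternative and gained in 4, against 912 with no such change. Depth limits low genes most, and 573 genes were at 0 in all libraries. The 6 libraries limit the precision of the Pim1 and Pim2 estimates.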
